A study of Mus musculus with 12 samples.

Results

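Mtmr9, Ppp1r3e, Atp8a2, Ccnb1ip1, Tssk4, Dad1, Abhd4 and Oxa1l are 8 genes of mouse chromosome 14 that lie within 10 Mb (megabases) of Trdc, the constant gene of the T cell receptor δ chain. They were chosen from the 52459 genes of the count table by their place near Trdc and with the difference between knockout and wild-type CD4+ T cells in view. That difference is therefore described here and not tested. All 8 passed the filter on low counts, among 16218 genes that did.

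The libraries came from T cells sorted by flow cytometry from mice that entered the study at 7 weeks of age and were fed a methionine- and choline-deficient (MCD) diet or a control diet for 6 weeks. The 6 groups of 2 libraries were CD4+ T cells of γδTCR-/- (knockout) mice on the MCD diet and on the control diet, γδ T cells of wild-type C57BL/6 mice on the MCD diet and on the control diet, and CD4+ T cells of wild-type C57BL/6 mice on the MCD diet and on the control diet. The labels give no strain for the knockout, do not name the gene it removes, and name no tissue. They do not say that replicates were separate mice, so p-values measure only the spread between these samples, which may be technical.

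A targeted allele is usually moved into another strain by repeated backcrossing, and a stretch of the chromosome of the original strain around the target can come with it. Genes in such a stretch can differ between a knockout and its wild type through their own sequence variants. Whether this applies to the mice studied was not tested. Trdc lies inside the receptor α locus, which is used in T cells, and its neighbour Dad1 is a gene used in most cells.

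Total counts per library ranged from 17035638 to 23203603, and 3 counts corresponded to 0.13 to 0.248 CPM (counts-per-million, scaled between libraries). Genes with at least 10 counts numbered 8989 and 10125 in the γδ MCD libraries and 11903 to 13402 in the other libraries, so low values are least certain in γδ MCD cells. Trdc read 80 and 20 counts in knockout MCD, 66 and 165 in knockout control, 57 and 5 in wild-type CD4+ MCD and 18 and 62 in wild-type CD4+ control libraries. It read 7552 to 14401 counts in the γδ libraries. Trdc was scarce in all CD4+ libraries, so it does not check the genotype. A list of 7 CD4+ T cell markers summed to 2526 to 3948 CPM in knockout and 2175 to 2314 CPM in wild-type CD4+ libraries, and 1 of its genes did not overlap between the genotypes. A list of 5 γδ markers summed to 10.3 to 66.3 CPM in knockout and 35.8 to 204 CPM in wild-type CD4+ libraries, and 1 gene did not overlap. In 6 lists of other cells (hepatocyte, endothelial, macrophage, B, neutrophil and monocyte, and erythroid) 0 genes were without overlap over both diets, and 1 of 2 CD8 markers was (3.12% of all genes). Within a diet, some summed lists did separate. The hepatocyte list was higher in knockout on both diets (2.62 to 15.8 against 0.139 to 0.59 CPM on MCD, 30.7 to 38.9 against 14.1 to 23.8 CPM on control). On the MCD diet the endothelial, macrophage and B lists were higher and the CD8 list lower in knockout. On the control diet the γδ, endothelial and erythroid lists were lower in knockout. The part of these markers in the differences below was not tested.

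Mtmr9, Tssk4 and Ccnb1ip1 were higher in all 4 knockout than in all 4 wild-type CD4+ libraries, and Ppp1r3e and Atp8a2 were lower in all 4. Of all genes tested, 1.12% were higher and 2.0% lower without overlap, but the genes were picked on this contrast, so nothing can be read from the counts. Dad1, Abhd4 and Oxa1l, which lie nearest to Trdc, overlapped between the genotypes. When the 4 wild-type γδ libraries were added to the wild-type side, Mtmr9, Tssk4 and Ccnb1ip1 were still above all 8 wild-type libraries (background 0.321%) and Ppp1r3e was below all 8 (background 0.222%, 0.543% in either direction), while Atp8a2 overlapped. Of all genes, 181 were above the 4 wild-type CD4+ libraries and 52 above all 8, and 325 and 36 were below. The 8 include the 4 CD4+ libraries used to choose the genes, so nothing can be read from these shares either. In sorted cells in bulk, fewer cells of a type and less RNA per cell cannot be told apart.

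**Figure D1:**
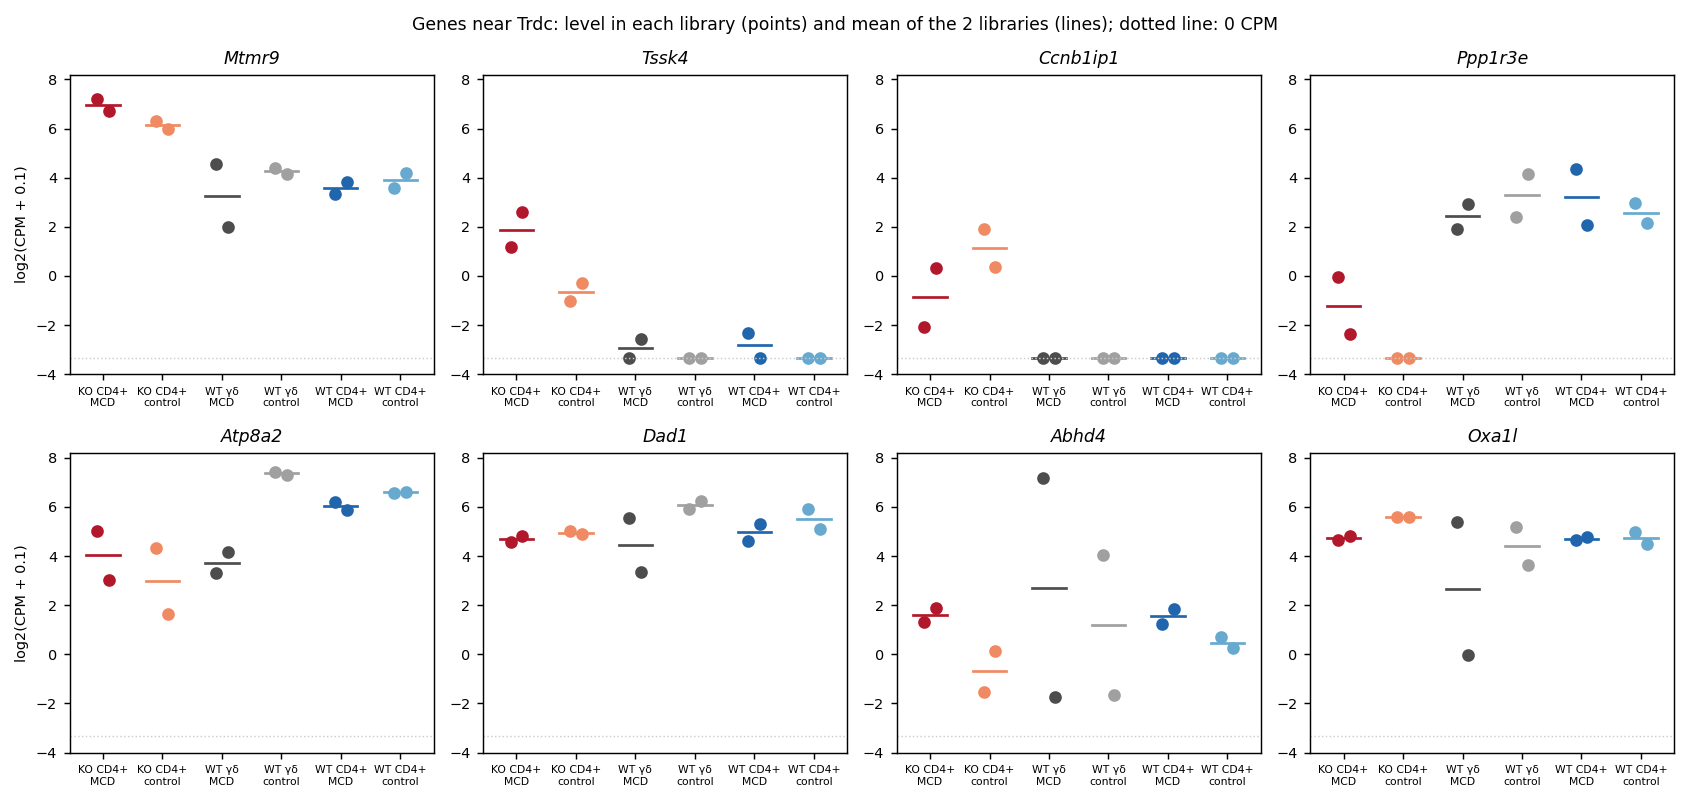
Level of each gene as log2(CPM + 0.1) in each library (points) and the mean of the 2 libraries of a group (lines). Mtmr9 was at 63.6 to 146 CPM in knockout CD4+ cells against 9.93 to 18.3 CPM in wild-type CD4+ cells, and Ccnb1ip1 sat on the dotted line of 0 CPM in all 8 wild-type libraries.

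Mtmr9 encodes a myotubularin-related protein that lacks phosphatase activity and binds active family members. The gene lies at chr14:63519651-63543982 (minus strand, GRCm38), 9.37 Mb from Trdc. It read 146 and 106 CPM in knockout MCD and 80.2 and 63.6 CPM in knockout control libraries, against 9.93 and 13.9 CPM in wild-type CD4+ MCD and 11.8 and 18.3 CPM in wild-type CD4+ control libraries. Every knockout library was above every wild-type one, with a wide gap. The means were 99.0 ± 36.0 CPM in knockout and 13.5 ± 3.61 CPM in wild-type CD4+ cells (SD, n = 4 each), 7.33-fold higher in knockout. The difference was 10.6-fold on the MCD diet and 4.76-fold on the control diet. γδ libraries on the MCD diet read 23.5 and 3.83 CPM and those on the control diet 20.8 and 17.8 CPM, which spans the wild-type CD4+ range. Mtmr9 had the highest FPKM (reads scaled by gene length, as the authors deposited them) of the 8 genes in knockout CD4+ cells, 24.8 ± 9.12 FPKM, against 3.44 ± 0.94 FPKM in wild-type CD4+ cells (SD, n = 4 each).

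Tssk4 encodes a testis-specific serine kinase with a role in sperm. It lies at chr14:55650184-55652539 (plus strand), 1501 kb from Trdc. It read 2.17 and 5.93 CPM (47 and 129 counts) in knockout MCD and 0.39 and 0.721 CPM (8 and 15 counts) in knockout control libraries. Wild-type CD4+ libraries held 2 and 0 counts on the MCD diet and 0 and 0 on the control diet, and γδ libraries held 0 and 1 counts on the MCD diet and 0 and 0 on the control diet. The gene was thus low in knockout cells and at or under the floor of 3 counts in every wild-type library. Over both diets, 199 counts in knockout against 2 in wild-type CD4+ libraries gave a ratio of 102 (95% counting interval 27.8 to 847). On the control diet it was at least 4.14-fold higher in knockout, taking 3 counts per wild-type library. Bounds and intervals cover counting error only.

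Ccnb1ip1 encodes a RING-domain protein that mouse meiosis needs for crossing over. It lies at chr14:50789248-50807732 (minus strand), 3.34 Mb from Trdc, the only one of the 8 on the lower-coordinate side. It read 0.138 and 1.15 CPM (3 and 25 counts) in knockout MCD and 3.66 and 1.20 CPM (75 and 25 counts) in knockout control libraries. It held 0 counts in all 8 wild-type libraries. With 3 counts per wild-type library as the floor, it was at least 11.09-fold higher in knockout than in wild-type CD4+ cells. It was at least 4.50-fold higher on the MCD diet and at least 18.1-fold on the control diet. Knockout MCD replicate 1 was itself at that floor, and replicate 2 held 25 of the 28 knockout MCD counts. Exons of Ccnb1ip1 overlap Rpph1, the RNA of ribonuclease P, on the same strand, and reads there may be split. Rpph1 read 0.23 and 0.046 CPM in knockout MCD and 0.8289 and 0.24 CPM in knockout control libraries, against 0.541 and 0.277 CPM in wild-type CD4+ MCD and 1.01 and 1.56 CPM in wild-type CD4+ control libraries. Rpph1 overlapped between the genotypes over both diets and had reads in wild-type libraries where Ccnb1ip1 had none. Within each diet both knockout libraries lay below both wild-type CD4+ libraries for Rpph1, opposite to Ccnb1ip1. By means Rpph1 was 2.96-fold lower in knockout on the MCD diet and 2.41-fold lower on the control diet. Whether reads were split between the 2 genes was not tested. Parp2, 108 bases away on the other strand, read 33.9 ± 14.8 CPM in knockout and 44.7 ± 18.1 CPM in wild-type CD4+ libraries (SD, n = 4 each).

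The promoter windows of Tssk4 and Ccnb1ip1 are shown because both genes had reads in every knockout library and almost none in wild-type ones. They run from 250 bases before to 50 bases after the RefSeq start (GRCm38.p6), 5′ to 3′, and are reference sequence, not sequence of these mice. Tssk4 is chr14:55649934-55650233, plus strand, and Ccnb1ip1 is chr14:50795679-50795978, minus strand, which lies inside the longer GENCODE gene. Capitals mark matches to the motifs searched on both strands, the TATA box TATAAA, the CCAAT box, the GC box GGGCGG, the ETS factor motif CCGGAAG and the cyclic-AMP response element TGACGTCA.
Tssk4: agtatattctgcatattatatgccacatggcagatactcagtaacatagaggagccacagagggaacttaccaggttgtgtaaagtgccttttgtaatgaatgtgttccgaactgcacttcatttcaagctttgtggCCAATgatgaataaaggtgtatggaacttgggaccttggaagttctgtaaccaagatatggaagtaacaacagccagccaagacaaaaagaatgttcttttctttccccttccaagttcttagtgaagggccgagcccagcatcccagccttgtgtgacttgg
Ccnb1ip1: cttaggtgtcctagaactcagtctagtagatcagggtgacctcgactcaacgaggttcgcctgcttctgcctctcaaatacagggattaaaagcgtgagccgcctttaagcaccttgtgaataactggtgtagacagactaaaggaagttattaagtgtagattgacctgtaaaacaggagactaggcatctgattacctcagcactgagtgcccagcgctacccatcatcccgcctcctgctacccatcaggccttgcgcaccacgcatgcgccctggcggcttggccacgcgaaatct
The Tssk4 window held 1 CCAAT, which 37.4% of 32544 mouse windows of this length hold on either strand. The Ccnb1ip1 window held 0 of these motifs, which says only that these letters are not in it. GC content was 43.3% in the Tssk4 and 52.0% in the Ccnb1ip1 window, against a median of 53.0% over all windows.

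Ppp1r3e encodes a subunit that brings protein phosphatase 1 to glycogen. Its position is chr14:54872669-54877550 (minus strand), 724 kb from Trdc. It read 0.875 and 0.092 CPM (19 and 2 counts) in knockout MCD and 0 counts in both knockout control libraries. In wild-type CD4+ libraries the MCD diet gave 20.3 and 4.16 CPM (414 and 90 counts) and the control diet 7.82 and 4.38 CPM (170 and 101 counts). Every knockout library lay below every wild-type one. Over both diets the mean was 0.242 ± 0.425 CPM in knockout and 9.18 ± 7.63 CPM in wild-type CD4+ cells (SD, n = 4 each), 37.9-fold lower in knockout. It was 25.3-fold lower in knockout on the MCD diet and at least 42.0-fold lower on the control diet. γδ libraries on the MCD diet read 3.71 and 7.52 CPM and those on the control diet 5.19 and 17.8 CPM, close to the wild-type CD4+ range. The next gene on the same strand, Homez, lies 1707 bases away. Homez read 5.62 and 1.10 CPM in knockout MCD and 4.78 and 20.0 CPM in knockout control libraries, against 11.8 and 0.97 CPM in wild-type CD4+ MCD and 1.61 and 0.911 CPM in wild-type CD4+ control libraries. The genotypes overlapped for Homez on the MCD diet and over both diets. On the control diet both knockout libraries lay above both wild-type CD4+ libraries, 9.81-fold by means.

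Atp8a2 encodes a flippase of the P4-type ATPase family, which moves phospholipids across membranes and is best known from neurons. It spans chr14:59638540-60197179 (minus strand), 5.49 Mb from Trdc. It read 32.7 and 8.004 CPM in knockout MCD and 19.9 and 2.98 CPM in knockout control libraries, against 73.8 and 57.9 CPM in wild-type CD4+ MCD and 95.4 and 96.6 CPM in wild-type CD4+ control libraries. The genotypes did not overlap, and within each knockout group 1 library was several times the other. The means were 15.9 ± 13.3 CPM in knockout and 80.9 ± 18.6 CPM in wild-type CD4+ cells (SD, n = 4 each), 5.09-fold lower in knockout. The difference was 3.23-fold on the MCD diet and 8.39-fold on the control diet. Exons of Nupl1 overlap those of Atp8a2 on the same strand, and exons of the antisense gene 4930563I02Rik and the pseudogene Gm19716 on the opposite strand, so the count is uncertain where reads could belong to either. Nupl1 itself read 83.4 ± 37.2 CPM in knockout and 82.9 ± 14.2 CPM in wild-type CD4+ libraries (SD, n = 4 each).

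Dad1 encodes a subunit of the oligosaccharyltransferase, which adds sugar chains to proteins in the endoplasmic reticulum. Its position is chr14:54235479-54254104 (minus strand), 86.6 kb from Trdc and the nearest of the 8. It read 23.5 and 28.3 CPM in knockout MCD and 32.0 and 29.7 CPM in knockout control libraries, against 24.2 and 39.9 CPM in wild-type CD4+ MCD and 60.5 and 34.6 CPM in wild-type CD4+ control libraries. The genotypes overlapped over both diets, although both knockout control libraries lay below both wild-type control libraries, with means of 28.4 ± 3.62 CPM in knockout and 39.8 ± 15.2 CPM in wild-type CD4+ cells (SD, n = 4 each). γδ libraries on the MCD diet read 46.9 and 10.1 CPM and those on the control diet 60.4 and 74.6 CPM.

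Abhd4 encodes a lysophospholipase that acts on N-acyl phospholipids. It lies at chr14:54254188-54270637 (plus strand), 105 kb from Trdc. It read 2.40 and 3.59 CPM in knockout MCD and 0.244 and 1.01 CPM in knockout control libraries, against 2.26 and 3.51 CPM in wild-type CD4+ MCD and 1.52 and 1.08 CPM in wild-type CD4+ control libraries. The genotypes overlapped on the MCD diet and over both diets, while both knockout control libraries lay below both wild-type control libraries. γδ libraries on the MCD diet read 143 and 0.202 CPM and those on the control diet 16.4 and 0.217 CPM, so in each diet 1 γδ library was far above the other.

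Dad1 and Abhd4 run in opposite directions, with 83 bases between their genes in GENCODE. By the RefSeq starts, the Dad1 window and 1 of the 2 Abhd4 windows, chr14:54253879-54254178, are almost the same stretch. The other Abhd4 window, chr14:54259033-54259332, is not shared and held 1 GGGCGG. The common stretch is shown once, as the Dad1 window, chr14:54253880-54254179 (RefSeq GRCm38.p6, minus strand), with the same motifs in capitals.
Dad1: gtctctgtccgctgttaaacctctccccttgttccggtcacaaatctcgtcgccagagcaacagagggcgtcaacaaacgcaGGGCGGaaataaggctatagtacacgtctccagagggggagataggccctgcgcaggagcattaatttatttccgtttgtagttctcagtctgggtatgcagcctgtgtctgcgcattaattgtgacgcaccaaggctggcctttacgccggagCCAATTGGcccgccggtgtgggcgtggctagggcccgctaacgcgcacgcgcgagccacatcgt
CCAAT was found on both strands, as matches that overlap in 2 bases, and GGGCGG once, which 35.9% of windows hold. Pearson's r between the 2 genes was 0.32 for log2 CPM over 12 libraries, given as a description. Deposited FPKM also differed: Dad1 read 6.77 ± 0.838 FPKM and Abhd4 0.518 ± 0.422 FPKM in knockout CD4+ cells (SD, n = 4).

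Oxa1l encodes an insertase of the mitochondrial inner membrane. The gene lies at chr14:54360834-54369673 (plus strand), 212 kb from Trdc, and its exons overlap Slc7a7 on the other strand. It read 24.9 and 28.2 CPM in knockout MCD and 48.0 and 47.5 CPM in knockout control libraries, against 24.7 and 27.2 CPM in wild-type CD4+ MCD and 31.2 and 22.2 CPM in wild-type CD4+ control libraries. The genotypes overlapped on the MCD diet, and both knockout control libraries were above both wild-type control libraries, 1.79-fold by means. The mitochondrial share of counts stood apart in the same groups, at 51.1% to 52.7% in knockout control and 41.1% to 42.2% in wild-type CD4+ control libraries, and its part in the control-diet values of Dad1, Abhd4 and Oxa1l was not tested. γδ libraries on the MCD diet read 41.3 and 0.873 CPM and those on the control diet 36.0 and 12.2 CPM.

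On the deposited FPKM, which scales for gene length, the order of the 8 genes differed between the genotypes. In knockout CD4+ cells Mtmr9 at 24.8 ± 9.12 FPKM was followed by Oxa1l at 9.10 ± 2.99 and Dad1 at 6.77 ± 0.838 FPKM, whose ranges overlapped, and the other 5 genes averaged 0.09 to 1.28 FPKM (SD, n = 4). In γδ cells Abhd4 at 12.3 ± 21.5, Dad1 at 11.8 ± 6.61, Oxa1l at 5.75 ± 4.97, Atp8a2 at 5.44 ± 5.26, Mtmr9 at 4.27 ± 2.30 and Ppp1r3e at 3.27 ± 2.37 FPKM came in that order, with overlapping ranges between neighbours (SD, n = 4). The place of Abhd4 rests on γδ MCD replicate 2, at 44.3 FPKM with 0.06 to 4.64 FPKM in the other γδ libraries, and without that library it averaged 1.59 FPKM and came after the other 5. In wild-type CD4+ cells Dad1 led at 9.66 ± 3.63 FPKM, ahead of Oxa1l at 6.57 ± 0.92, Atp8a2 at 4.99 ± 1.10, Ppp1r3e at 3.47 ± 2.86 and Mtmr9 at 3.44 ± 0.94 FPKM, and here too the ranges of neighbours overlapped (SD, n = 4). Tssk4 and Ccnb1ip1 stood last in both wild-type cell types.

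The diet contrasts were not used to choose the genes and were tested with edgeR's quasi-likelihood test, adjusted over all 16218 genes by the Benjamini-Hochberg method. 0 of the 8 genes passed an adjusted p of 0.05 in knockout CD4+, γδ or wild-type CD4+ cells. Tssk4 and Ccnb1ip1 were at or under 3 counts in every wild-type library, so they could not pass in γδ or wild-type CD4+ cells. At an unadjusted p of 0.05, 1 of the 8 passed in knockout CD4+ cells, 1 in γδ cells and 0 in wild-type CD4+ cells. Of all 16218 genes, 982, 2839 and 346 passed in that order. DESeq2 called 0, 1 and 0 of the 8 in the same order, and limma-voom called 0 in each. Over all genes, DESeq2 called 266, 2105 and 40, and limma-voom 19, 63 and 0. Over all genes, edgeR called 0.037% in knockout CD4+ cells and 0.0% in the other 2.

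Atp8a2 differed most between diets in γδ T cells, which the choice of genes did not use. It read 9.74 and 17.9 CPM on the MCD diet, against 170 and 158 CPM on the control diet. The MCD libraries were both far below the control ones, 11.9-fold by means (13.8 ± 5.75 and 164 ± 8.79 CPM, SD, n = 2 each). In edgeR the log2 fold change was -3.56 (SE 0.84, adjusted p = 0.0936). Every SE of an edgeR value is the absolute log2 fold change divided by the square root of the test's F statistic. It restates the test and is not a spread between libraries. It passed with DESeq2 (adjusted p = 0.000525), where 2105 of all genes passed. In edgeR without the filter on low counts it passed too (adjusted p = 5.65e-05), where 555 of all genes did. Without γδ MCD replicate 4 the log2 fold change was -4.06. The adjusted p of Atp8a2 ranged from 5.65e-05 to 0.438 over all alternatives. Of all genes, 22.1% were lower on the MCD diet without overlap in γδ cells, and of the 8 genes these were Atp8a2 and Dad1. Markers of other cells moved with this contrast. In γδ libraries the endothelial list summed to 0.165 to 16.7 CPM on the MCD and 271 to 402 CPM on the control diet. The B cell list summed to 5.12 to 7.12 CPM on the MCD and 74.0 to 151 CPM on the control diet. The CD8, hepatocyte and erythroid lists were also lower on the MCD diet without overlap. The neutrophil and monocyte list was higher, 149 to 190 against 57.2 to 83.7 CPM. The macrophage list overlapped, at 1218 to 1781 CPM on the MCD and 664 to 1345 CPM on the control diet. The γδ list itself was lower on the MCD diet, 1776 to 2057 against 2486 to 2611 CPM. So was the CD4+ T cell list, 1228 to 1319 against 1913 to 2124 CPM. The part of these lists in the Atp8a2 difference was not tested. In CD4+ cells Atp8a2 gave a log2 fold change of 0.83 in knockout (SE 0.76, adjusted p = 0.915) and -0.54 in wild-type cells (SE 0.76, adjusted p = 1.0).

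**Figure D2:**
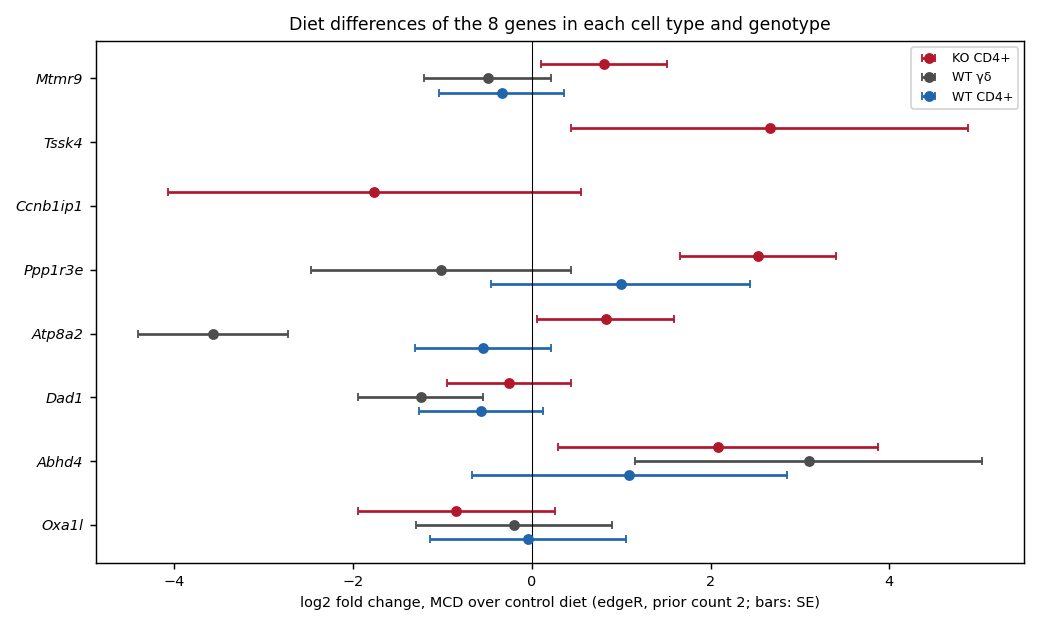
Log2 fold change of the MCD over the control diet (edgeR, prior count 2) for each gene in knockout CD4+, γδ and wild-type CD4+ T cells, with bars of 1 SE. The SE is derived from the test's F statistic and is not a spread between libraries. Only the γδ value of Atp8a2, at -3.56, lies more than 4 SE from 0, and values for Tssk4 and Ccnb1ip1 are shown for knockout cells alone because wild-type groups were at or under 3 counts per library.

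In knockout CD4+ cells 7 of the 8 genes did not overlap between diets, where 38.9% of all genes did not. Higher on the MCD diet were Mtmr9 (1.75-fold), Tssk4 (7.29-fold), Abhd4 (4.77-fold) and Ppp1r3e (at least 3.33-fold), where 20.8% of all genes were higher without overlap. The Ppp1r3e bound rests on knockout MCD replicate 1, which held 19 of its 21 counts, and without it the log2 fold change was 0.93. Lower were Ccnb1ip1 (3.77-fold), Oxa1l (1.80-fold) and Dad1 (1.19-fold), where 18.1% of all genes were. For Ccnb1ip1, replicate 2 held 25 counts on both diets (1.15 and 1.20 CPM), so the fold rests on replicate 1, with 3 and 75 counts. Dad1 separated narrowly, by 28.3 CPM on the MCD against 29.7 CPM on the control diet, and its direction reversed with library size only. None of these differences passed the test, and the lowest p was that of Ppp1r3e (log2 fold change 2.53, SE 0.87, edgeR adjusted p = 0.714). The mitochondrial share of counts was 41.1% to 43.9% on the MCD diet and 51.1% to 52.7% on the control diet in knockout cells, and its part was not tested beyond a fit without mitochondrial genes, in which 0 of the 8 passed. In wild-type CD4+ cells Abhd4 alone was higher without overlap (background 16.7%) and Atp8a2 alone lower (background 17.2%). In γδ cells 0 of the 8 were higher without overlap (background 11.1%), and Tssk4 and Ccnb1ip1 were at or under 3 counts in every γδ library.

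Whether the genotype difference itself depended on the diet was tested as an interaction in edgeR. 0 of the 8 genes and 0.0% of all genes passed an adjusted p of 0.05. At an unadjusted p of 0.05, 0 of the 8 and 703 of all 16218 genes passed. DESeq2 and limma-voom called 0 of the 8, and 71 and 1 of all genes. Ccnb1ip1 had 0 counts in wild-type CD4+ libraries and Tssk4 had 2, so their interaction could not be estimated reliably. The CD4+ libraries of both diets were also used to choose the genes, so these results are not independent of that choice. Mtmr9 had an interaction of 1.15 on the log2 scale (SE 0.9985, edgeR adjusted p = 1.0), and Ppp1r3e one of 1.53 (SE 0.72, edgeR adjusted p = 1.0). The larger Mtmr9 fold on the MCD diet was therefore not shown to differ from that on the control diet.

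The 8 genes were set beside all others near Trdc. The table held 702 genes within 10 Mb, of which 500 were no receptor segments, and 183 of those passed the filter. Without the 8 genes, 175 remained, and 5 of them (2.86%) did not overlap between the genotypes, close to the 3.12% of all genes. Without knockout control replicate 1 or 2 the count was 14 or 11, without knockout MCD replicate 1 or 2 it was 12 or 8, and without wild-type CD4+ control replicate 2 or 3 or MCD replicate 3 it was 11, 9 or 10, while the share of all genes was 5.41% to 6.94% in these 7 cases. With all libraries, the 5 were Cryl1, Phf11a, Khnyn, Acin1 and an unnamed antisense transcript, Gm15918. The median log2 fold change of the 183 genes was -0.11, against -0.01 over all genes tested. On the rest of chromosome 14, 4.62% of 303 genes did not overlap, and within 10 Mb of the γ-chain constant gene Tcrg-C1 on chromosome 13, 4.82% of 83.

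The genes without overlap were also counted by distance from Trdc. There 0 genes were higher and 2 lower up to 1 Mb (30 tested), 3 and 1 between 1 and 5 Mb (78 tested), and 3 and 1 between 5 and 10 Mb (75 tested), the 8 genes included. On the higher-coordinate side 5 genes were higher and 4 lower of 117, and on the lower-coordinate side 1 and 0 of 65. These counts also include the 8 genes, 7 on the higher-coordinate side and 1 on the lower. Of all genes tested, 1.12% were higher and 2.0% lower without overlap. The 8 were chosen on this contrast, so no pattern along the locus can be read from the counts. The window's limit fell between genes that overlapped on both ends: Ptger2 and Msra just inside it read 0.536 to 11.3 and 4.05 to 7.26 CPM in knockout, against 3.25 to 13.3 and 0.295 to 9.05 CPM in wild-type CD4+ libraries. Just outside it, Ear2 and Kif13b read 0 to 1.84 and 25.6 to 73.1 CPM in knockout, against 0 to 0.323 and 33.8 to 63.9 CPM in wild-type CD4+ libraries.

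**Figure D3:**
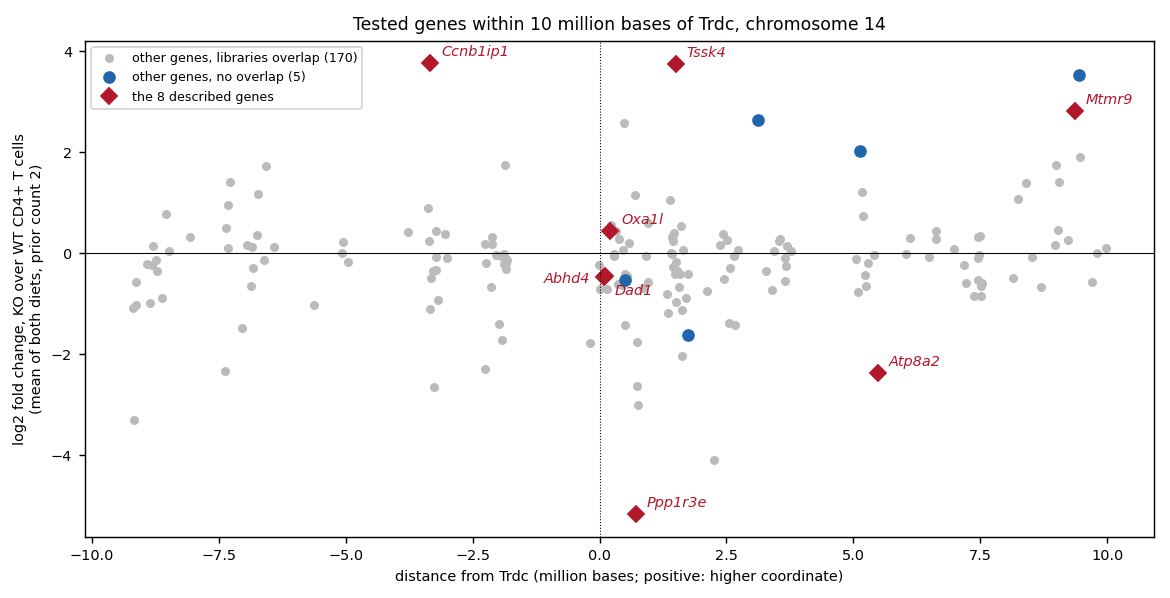
Log2 fold change of knockout over wild-type CD4+ T cells (mean of both diets, edgeR, prior count 2) against distance from Trdc in Mb for the 183 genes tested. The 8 described genes (diamonds) include the highest and lowest values, as their choice on this contrast favours. Another 5 genes had no overlap between genotypes, and the remaining 170 overlapped.

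Of the named genes in the window, Cryl1, which encodes a crystallin-like dehydrogenase of sugar metabolism, lay 3.13 Mb away and averaged 4.56 ± 3.34 CPM in knockout and 0.633 ± 0.512 CPM in wild-type CD4+ libraries, 7.20-fold higher (SD, n = 4 each). Phf11a, of a zinc-finger gene cluster, lay 5.13 Mb away and averaged 3.94 ± 3.31 CPM in knockout and 0.874 ± 0.261 CPM in wild-type CD4+ libraries, 4.51-fold higher (SD, n = 4 each). Khnyn, an RNA-binding antiviral cofactor in human cells, averaged 9.12 ± 3.58 CPM in knockout and 28.4 ± 15.6 CPM in wild-type CD4+ libraries, 3.11-fold lower (SD, n = 4 each). Acin1, a splicing-associated factor, averaged 102 ± 8.91 CPM in knockout and 147 ± 18.4 CPM in wild-type CD4+ libraries, 1.44-fold lower (SD, n = 4 each). None of the 4 was called by edgeR after adjustment.

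Genes of the same families and complexes were listed beside each of the 8. Of these 97 genes, 79 were tested, with 33 higher and 46 lower in knockout by log2 fold change, and 3 did not overlap between the genotypes, where 3.12% of all genes did not. 0 of the 79 were called by edgeR, against 0.00617% of all genes. None of them reached an unadjusted p of 0.05, which 717 of all 16218 genes did. The myotubularins held 8 higher and 5 lower of 13, with a median log2 fold change of 0.19. In this list Mtmr1 averaged 53.8 ± 11.8 CPM in knockout and 78.9 ± 14.1 CPM in wild-type CD4+ libraries, 1.47-fold lower without overlap (SD, n = 4 each). Mtmr6, which encodes an active myotubularin known to bind the Mtmr9 protein, lies on chromosome 14 too, 6.12 Mb from Trdc, and averaged 52.2 ± 18.3 CPM in knockout and 42.4 ± 17.6 CPM in wild-type CD4+ libraries with overlap (SD, n = 4 each).

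The glycogen and protein phosphatase 1 list held 6 higher and 5 lower of 11. The catalytic subunit Ppp1cb averaged 141 ± 4.51 CPM in knockout and 110 ± 9.10 CPM in wild-type CD4+ libraries, 1.27-fold higher without overlap (SD, n = 4 each). Ppp1r3b, another glycogen-targeting subunit, averaged 1.33 ± 1.74 CPM in knockout and 6.75 ± 5.56 CPM in wild-type CD4+ libraries with overlap (SD, n = 4 each). The flippases held 5 higher and 6 lower of 11, with a median of -0.15, and Atp8a1, a close relative of Atp8a2, averaged 60.1 ± 21.9 CPM in knockout and 77.3 ± 20.0 CPM in wild-type CD4+ libraries (SD, n = 4 each).

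Of the oligosaccharyltransferase genes beside Dad1, 5 were higher and 6 lower of 11, and Ddost, Ostc and Stt3b had the lowest p-values and all overlapped. The mitochondrial insertion list beside Oxa1l had 3 higher and 7 lower of 10, with a median of -0.20, and the ABHD hydrolases beside Abhd4 had 5 higher and 13 lower of 18, with a median of -0.19. Few genes of the germ-cell lists could be tested. Of 10 meiotic crossover genes 4 passed the filter, with Msh5 higher and 3 lower, and of 7 genes listed with Tssk4 only Odf2 passed, at 21.7 ± 7.13 CPM in knockout and 54.1 ± 23.02 CPM in wild-type CD4+ libraries (SD, n = 4 each), 2.49-fold lower without overlap.

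**Figure D4:**
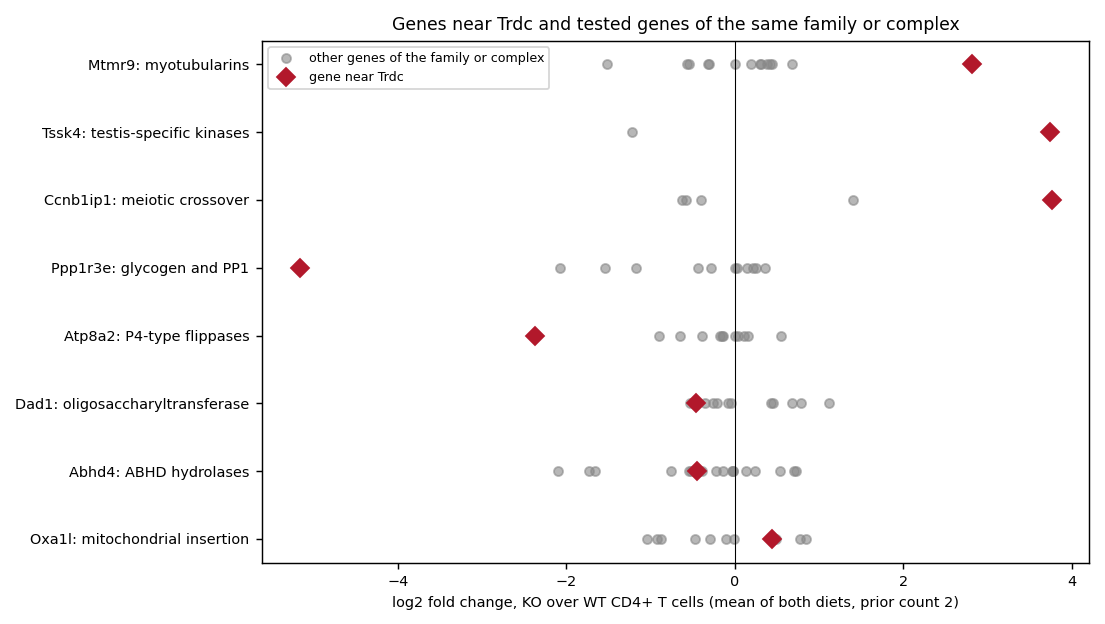
Log2 fold change of knockout over wild-type CD4+ T cells (mean of both diets, edgeR, prior count 2) for each of the 8 genes (diamonds) and the tested genes of its family or complex (circles). Mtmr9, Tssk4 and Ccnb1ip1 lie to the right and Ppp1r3e and Atp8a2 to the left of every listed gene of their rows, as the choice of these 5 on the same contrast favours, while Dad1, Abhd4 and Oxa1l lie among theirs.

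The genes also differed in how they followed one another over the 12 libraries. By Pearson's r of log2 CPM, which shares the genotype groups that chose the genes, Mtmr9 went with Tssk4 (r = 0.79) and Ccnb1ip1 (r = 0.73), Ppp1r3e with Atp8a2 (r = 0.74), and Ppp1r3e ran opposite to Ccnb1ip1 (r = -0.94) and Mtmr9 (r = -0.80). Among all genes tested, the one most like each of 7 of them over the 12 libraries was Gm5828 for Mtmr9 (r = 0.89), Gm15918 for Tssk4 (r = 0.90), Pcdhga11 for Ccnb1ip1 (r = 0.96), Klrc3 for Ppp1r3e (r = 0.91), Pfdn4 for Dad1 (r = 0.91), Gm12696 for Abhd4 (r = 0.95) and Cct3 for Oxa1l (r = 0.97). Of these only Gm15918 lies on chromosome 14.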

How the data were processed

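RNA was measured by Illumina sequencing of sorted T cells. Per the submitters' processing notes, bcl2fastq, STAR, featureCounts and DESeq2 were used on mm10 (GRCm38), and neither versions nor the strand setting are given in the sources used here. The authors deposited raw counts per gene and FPKM values, and those FPKM are scaled by 1 further factor per library, not by the total count. Positions came from GENCODE vM21, with 48010 symbols matched directly and 316 through RefSeq synonyms. Counts were fitted with edgeR 4.0.16 (TMM, filterByExpr with minimum count 10 and minimum total 15, quasi-likelihood, prior count 2) in R 4.3.3, with 1 coefficient per group over 12 libraries and Benjamini-Hochberg adjustment over 16218 genes at 0.05. The fit was tested on simulated counts. A difference without overlap means that every library of one group lay above every library of the other in CPM. The genes and lists were chosen with earlier results of these data known. Named genes were the 8, label genes, up to 5 window genes per direction without overlap averaging 1 CPM or more, up to 3 of each family list by p, and the most correlated gene, of which 1 is not reported here. Alternatives were RLE and library-size scaling, no mitochondrial genes, no filter, a mean of at least 50 counts, DESeq2 1.42.0, limma-voom (limma 3.58.1), log2 FPKM with pseudocounts of 1 and 0.1, subsets of libraries, a replicate block, and leaving out each library.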

Additional observations from a re-analysis of the deposited data

Results flagged for a closer look

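Among 20 sets of 4 libraries examined, 2 had a library far from the other 3, and chance flags about 1 set in 20. Abhd4 read 143 CPM in γδ MCD replicate 2, while the next γδ library read 16.4 CPM. Ppp1r3e read 0.875 CPM in knockout MCD replicate 1, from 19 counts, while the next knockout library read 0.092 CPM.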

How the results depend on the processing

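Each group held 2 libraries, and Tssk4, Ccnb1ip1 and Ppp1r3e rest on few counts in at least 1 genotype. Mtmr9, Tssk4 and Ccnb1ip1 stayed higher and Ppp1r3e and Atp8a2 lower without overlap under each scaling and on deposited FPKM, and leaving out 1 library gave 2 to 3 lower and always 3 higher of the 8 genes. Other genes near Trdc without overlap numbered 5, and 8 with library size only, with 5 to 14 when 1 library was left out.

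Counts of all genes called by edgeR's test in the knockout against wild-type contrast were 1 for the mean of diets, 0 on the MCD diet and 4 on the control diet. In the mean of diets they were 37 without a filter, 76 with DESeq2, 0 with limma-voom and both FPKM fits, and 2 with CD4+ libraries only. On the MCD diet they were 11 without a filter, 39 with DESeq2, 5 with log2(FPKM + 1) and 1 with CD4+ libraries only. On the control diet they were 52, 122 and 2 without a filter, with DESeq2 and with log2(FPKM + 1). Leaving out 1 library gave 0 to 4, 0 to 0 and 0 to 6. The interaction went from 0 to 44 without a filter, 71 with DESeq2, 1 with limma-voom or CD4+ libraries only, and 0 to 1 leaving out 1 library.

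In the diet contrasts, the mean of genotypes went from 6 to 106 without a filter, 196 with DESeq2, 11 and 1 with FPKM pseudocounts of 1 and 0.1, 54 with CD4+ libraries only, and 0 to 24 leaving out 1 library. In knockout cells 6 became 10 with library size only, 105 without a filter, 3 with a mean of at least 50 counts, 266 with DESeq2, 19 with limma-voom, 15 with log2(FPKM + 1), 89 with CD4+ libraries only, and 0 to 42 leaving out 1 library. With the replicate block in knockout libraries only, 80 genes were called, against 6 in the same libraries without it, and 0 of the 7 genes tested there passed in either (Ppp1r3e did not pass their filter on low counts). Deviations of same-numbered knockout libraries had r = -0.0059 over genes, so the numbers are not shown to pair them. In wild-type CD4+ cells 0 became 19 without a filter and 40 with DESeq2, and 0 to 0 leaving out 1 library. In γδ cells 0 became 3 with library size only, 555 without a filter, 2105 with DESeq2, 63 with limma-voom, 148 and 210 with FPKM pseudocounts of 1 and 0.1, and 0 to 1342 leaving out 1 library. In γδ against CD4+ cells 966 became 1981 with library size only, 1588 without a filter, 3069 with DESeq2, 1625 with limma-voom and 311 to 2548 leaving out 1 library.

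Directions of single genes reversed in 3 fits with all libraries: the interaction of Ppp1r3e was -0.33 and the mean diet value of Atp8a2 -0.026 (log2) with log2(FPKM + 1), and the knockout diet value of Dad1 was 0.051 with library size only. Leaving out 1 library, log2 values spanned 0 in the interaction for Dad1 (-0.14 to 0.72) and Ppp1r3e (-0.069 to 3.07), in the diet contrast for Atp8a2 in the mean of genotypes (-0.53 to 1.08) and in knockout cells (-0.51 to 2.71), in wild-type CD4+ cells for Mtmr9 (-0.62 to 0.011), Oxa1l (-0.26 to 0.22) and Ppp1r3e (-0.54 to 1.72), and in γδ cells for Abhd4 (-4.79 to 7.82), Mtmr9 (-2.28 to 0.29), Oxa1l (-4.62 to 0.79) and Ppp1r3e (-1.62 to 0.13). Without γδ MCD replicate 2, Dad1 (-2.71, adjusted p = 0.0459) and Oxa1l (-4.62, adjusted p = 0.0247) passed edgeR's test in γδ cells, and their adjusted p ranged from 0.0459 to 0.844 and from 0.0247 to 1 over the alternatives. The cause of these shifts was not tested.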

Other observations

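Gm15918, an antisense transcript without a gene name, was picked out after its values were seen. Its position is chr14:63602524-63607372 (GRCm38, minus strand), 9.45 Mb from Trdc on the same side as Mtmr9. It read 7.92 and 4.42 CPM in knockout MCD and 2.44 and 0.865 CPM in knockout control libraries, against 0.344 and 0 CPM in wild-type CD4+ MCD and 0.23 and 0.173 CPM in wild-type CD4+ control libraries. It held 0 counts in all 4 γδ libraries. Over both diets, 336 counts in knockout stood against 16 in wild-type CD4+ libraries, 20.9-fold by mean CPM. Mtmr9 and Gm15918 were both above all wild-type CD4+ libraries in every knockout library, and both read more on the MCD than on the control diet in knockout cells.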
